A study of Caenorhabditis elegans with 16 samples.

Results

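RNA from whole day 1 adult C. elegans was compared between rnp-6(G281D) mutants raised on E. coli BW25113 and the same mutants raised on E. coli OP50, with 4 samples on each diet out of 16 samples in the series. Of the 29351 genes in the deposited table, the 15810 with a mean of at least 10 normalized counts over these 8 samples were tested, and no measured difference entered that choice. The mutant carries a hypomorphic point mutation in rnp-6, present in both diet groups, so the diets are compared on one genetic background. Synchronized animals were obtained by egg laying and grown for 3 days at 20 °C on one of the bacteria. The study reports slower growth of the mutant on OP50 and its rescue by BW25113. Diet and developmental progress therefore cannot be told apart in the mutant samples. Wild type N2 animals grown in the same way, again 4 samples on BW25113 and 4 on OP50, were used here only to show where the diet effect in the mutant differed from that in wild type. The comparison addresses how a K12-type bacterial diet, given in a study of the mutant's growth, changes the mutant's transcriptome.

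RNP-6 is the C. elegans homologue of the human splicing factor PUF60, which helps to recognize the 3' end of introns. OP50 is the B-type E. coli on which worms are kept in most laboratories, and BW25113 is a K12-type strain. Bacteria are the worm's only food here, and they reach an intestine that digests them with lysozymes, saposins and lysosomal proteases, defends itself with secreted lectins and antimicrobial peptides, and supplies the germline with yolk.

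The samples grouped by diet. Log-scale correlations were 0.988 to 0.994 within a diet and 0.974 to 0.989 between diets, and the first principal component, with 45.9% of the variance, separated the diets. The second component, with 12.5%, set replicate 3 on BW25113 apart from the other samples. The totals of normalized counts were 36330390 to 38381707 per sample, and the spacing of low values put the depth at about 32500000 to 48100000 reads. The rnp-6 transcript itself was at 7519, 7275, 7337 and 7213 normalized counts on BW25113 and at 7082, 6798, 7174 and 7189 on OP50, a log2 fold change (log2FC, BW25113 over OP50) of 0.06 (limma, SE 0.03, adjusted p = 0.2). A point mutation need not change the amount of transcript, so these values do not check the genotype labels. Whole animals were used, so fewer cells of a type and less RNA per cell cannot be told apart in any value below. The study describes its assays in general as repeated in independent experiments, but the labels do not say whether the samples of a group came from separate cultures. The tests measure the spread between these samples, which may be technical.

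Markers of 11 cell types and stages were all found in the whole animals. The summed levels of sperm, intestinal and neuronal markers did not overlap between the diets in the mutant. The 5 tested intestinal markers summed to 22054 to 23778 normalized counts on BW25113 and to 26659 to 28600.0 on OP50, with a median log2FC of -0.22 and no member called. Most of the intestinal sum came from act-5, with means of 16798 on BW25113 and 20831 on OP50. Neuronal markers summed to 4828 to 5142 on BW25113 and 5469 to 5717 on OP50. None of the 6 was called, and unc-119 went the other way (log2FC 0.10). Sperm markers summed to 601 to 1006 on BW25113 and 1204 to 2226 on OP50. In wild type the intestinal sums overlapped, at 21510 to 24134 on BW25113 and 23364 to 25191 on OP50. So did the neuronal sums there, at 4798 to 4966 on BW25113 and 4854 to 5090 on OP50. The sums of germline, oocyte, embryo, muscle, pharynx, hypodermis, larval moulting and vulval markers overlapped between the diets in the mutant. dpy-7, a collagen gene of the larval cuticle, was called higher (144 on BW25113 and 51.2 on OP50 on average). The part of these marker levels in the results below was not tested.

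A gene was called when its limma adjusted p (Benjamini-Hochberg, over all genes tested) was under 0.05 and its log2FC was beyond 0.5 in either direction. On BW25113, 1494 of the 15810 genes tested (9.45%) were called, 341 higher (2.16%) and 1153 lower (7.29%). The falls were both more frequent and larger. The median log2FC was 0.79 among the genes called higher, -1.01 among those called lower and 0.00 over all genes. Beyond a log2FC of 1 there were 99 higher and 589 lower genes. The values of the 2 diets did not overlap in 3666 genes (23.2%), 1391 of the called genes among them. Each of these reached p = 0.0286 in the exact permutation test over the 70 divisions of 8 samples, which is the smallest p that test can give. Expression was low in many of the called genes, as 702 of them (47.0%) had a mean under 100, while 149 had a mean of at least 1000, of which 45 were higher and 104 lower. With quantile normalization added, the split moved to 549 higher and 874 lower genes. Chromosomes differed in the share of genes called lower, with 10.5% on IV, 9.71% on V, 6.74% on II, 6.33% on I, 5.53% on III and 3.80% on X.

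**Figure D1:**
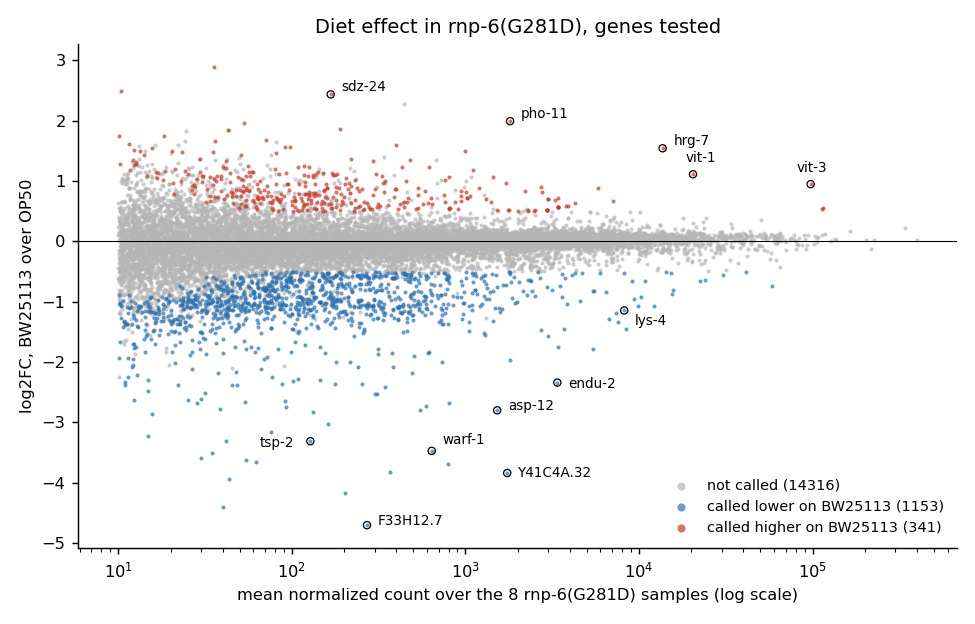
Log2FC (BW25113 over OP50) of every gene tested in rnp-6(G281D), against its mean normalized count over the 8 samples on a log axis; each point is 1 gene, blue if called lower (1153), red if called higher (341) and grey otherwise. The strongest falls lie among genes of low to middle level, and the rises stay closer to the zero line.

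The largest falls came in genes that were low in wild type on either diet. F33H12.7, a protein-coding gene on chromosome II (WBcel235, 2586078 to 2586911), had 20.6, 8.16, 31.1 and 22.95 normalized counts on BW25113 and 401, 470.2, 600.2 and 613 on OP50, a 25.2-fold fall (log2FC -4.70, SE 0.33, adjusted p = 4.9e-06). In wild type it averaged 19.2 on BW25113 and 17.9 on OP50, so that the mutant on BW25113 stood at about the wild type level. Y37H2A.14 had 152, 75.7, 118 and 115 on BW25113 and 1214, 1669, 1414 and 1577 on OP50 (log2FC -3.69), and on BW25113 it stayed above its wild type means of 38.9 on BW25113 and 36.9 on OP50. T19C9.8 (log2FC -3.82) and T26H5.9 (log2FC -4.17) fell by as much, with mutant means on BW25113 of 51.1 and 21.7 that were again above those of wild type on BW25113, 26.6 and 9.26. Y41C4A.32, on chromosome III, had 338, 139, 194 and 246 on BW25113 and 2611, 2764, 2636 and 5005 on OP50 (log2FC -3.84). Its highest value, 5005, was that of replicate 4 on OP50, yet the other 3 OP50 samples were also more than any BW25113 sample.

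Several of the strongest falls had a known family. warf-1, an ADP-ribosylation factor-related small GTPase gene on chromosome IV, was at 169, 64.5, 80.1 and 129.5 on BW25113 and at 1054, 1038, 1097 and 1485 on OP50, 10.5-fold lower on BW25113 (log2FC -3.47, SE 0.26, adjusted p = 7.9e-06). The tetraspanin genes tsp-2 and tsp-1, neighbours on chromosome III (8236928 to 8237935 and 8238001 to 8239423), fell together. tsp-2 had 19.5, 10.3, 35.8 and 31.4 on BW25113 and 165, 209.5, 269 and 281.5 on OP50 (log2FC -3.31), and tsp-1 had a log2FC of -3.02. A second pair of neighbours, on chromosome V, did the same: the cation-transporting ATPase gene catp-2, at 102, 79.4, 109 and 134 on BW25113 and 706, 679.9, 579 and 357 on OP50 (log2FC -2.42), and C02E7.10 next to it (log2FC -2.83). Neither diet group overlapped the other in any of these genes. The same held for 23.2% of all genes tested, and the largest falls were picked among genes without overlap.

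A different kind of fall was shared with wild type. asp-12, which encodes an aspartyl protease, had 334, 496, 367 and 344 on BW25113 and 2636, 3028, 2407 and 2583 on OP50 (6.91-fold lower, log2FC -2.80, SE 0.12, adjusted p = 2.4e-07). In wild type its log2FC was -2.47, and the difference between the genotypes was not called (-0.33, adjusted p = 0.437). endu-2, an endoribonuclease gene of the poly(U)-specific family picked after its values were seen, was among the tightest changes at high level. It had 1264, 1222, 942 and 1063 on BW25113 and 5794, 5588, 5643 and 5572 on OP50 (5.03-fold lower, log2FC -2.34, SE 0.08, adjusted p = 6.7e-08), with a log2FC of -1.99 in wild type.

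Rises were smaller, and the leading ones were again of both kinds. sdz-24 had 229, 356, 302 and 241 normalized counts on BW25113 and 69.97, 67.0, 37.9 and 36.3 on OP50 (5.34-fold higher, log2FC 2.44, SE 0.24, adjusted p = 5.6e-05). In wild type it averaged 68.7 on BW25113 and 46.7 on OP50, so the mutant on BW25113 stood above all other groups. pho-11, which encodes a histidine acid phosphatase, had 2833, 3132, 2707 and 2881 on BW25113 and 798, 823, 715 and 583 on OP50 (3.96-fold higher, log2FC 1.99, SE 0.10, adjusted p = 4.4e-07). Wild type kept more of this transcript on both diets, with means of 7235 on BW25113 and 4692 on OP50. The UDP-glucuronosyltransferase gene ugt-53 was likewise raised in the mutant, with 265, 338, 313 and 265 on BW25113 and 102, 86.8, 65.7 and 71.1 on OP50 (log2FC 1.86), and remained below its wild type means of 599 on BW25113 and 456 on OP50. cutl-18, a cuticlin-like gene (log2FC 1.36), the transthyretin-like ttr-44 (1.36), T05E7.1 (1.33) and fpn-1.2, a ferroportin-type iron exporter gene (1.14), also rose. C08F1.10 was called at a log2FC of 1.25, but the call was lost when replicate 1, 3 or 4 on BW25113 or replicate 4 on OP50 was left out. T22B7.7 was higher in the mutant on BW25113 (626, 713, 600.2 and 501) than on OP50 (278, 264, 241 and 245), while in wild type the means were 1306 on BW25113 and 1339 on OP50.

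**Figure D2:**
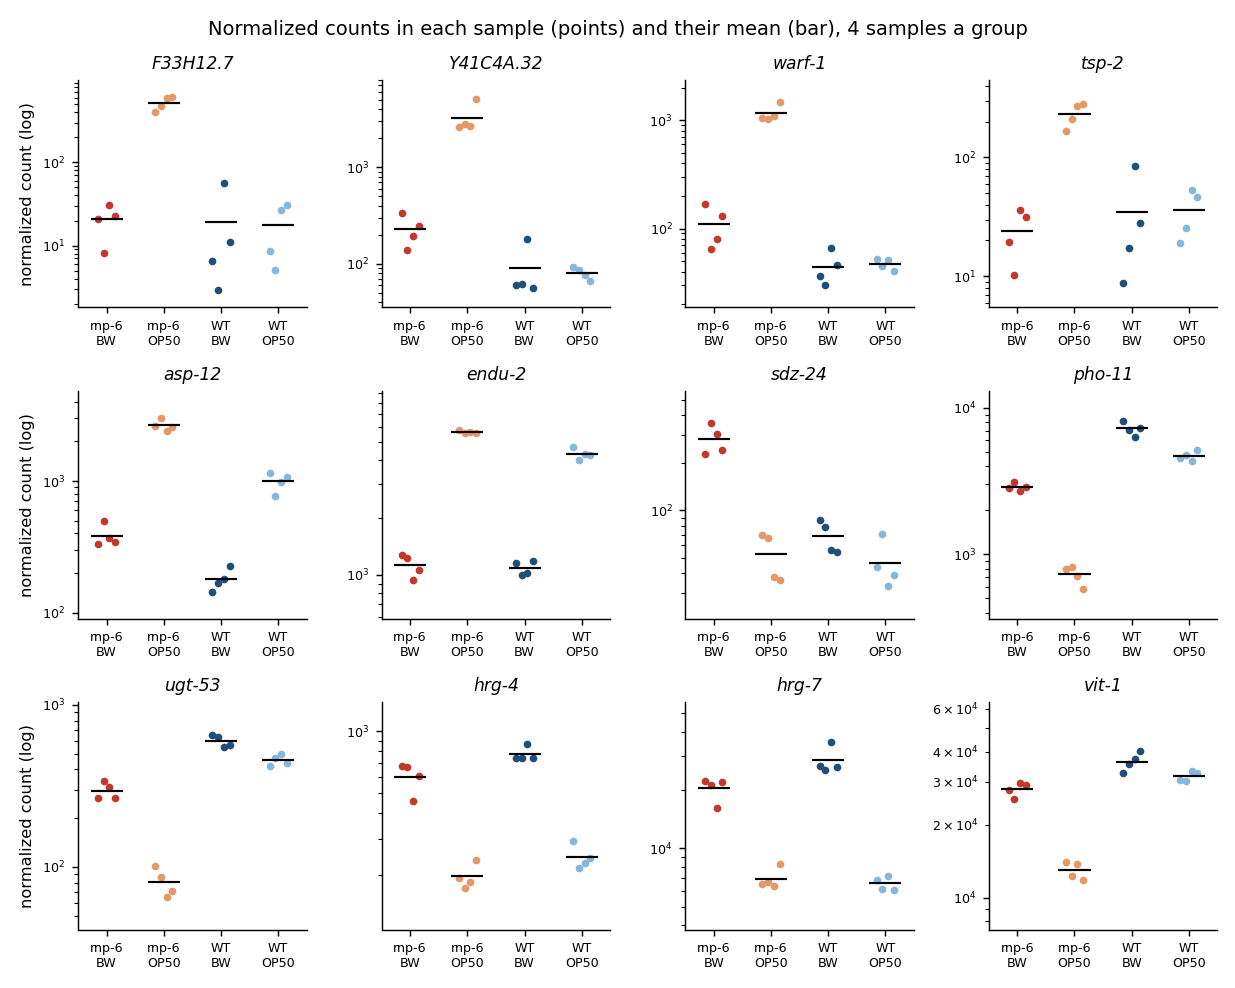
Normalized counts of 12 genes in each sample on a log axis, in rnp-6(G281D) on BW25113, rnp-6(G281D) on OP50, wild type on BW25113 and wild type on OP50 (4 samples each); points are samples and bars are group means. F33H12.7, Y41C4A.32, warf-1 and tsp-2 are high only in the mutant on OP50 among the 4 groups, asp-12 and endu-2 fall on BW25113 in both genotypes, and hrg-4 and hrg-7 rise in both.

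The same diets changed fewer genes in wild type. Under the same rule 515 genes (3.26%) were called there, 401 of them lower (2.54%) and the others higher (0.721%). The comparisons in mutant and wild type share no sample. In both, 344 genes were called in the same direction, 298 lower and 46 higher, which is 23.03% of the calls in the mutant and 66.8% of those in wild type. Of the 1494 genes called in the mutant, 1300 (87.0%) had the same sign in wild type, with a median log2FC of -0.43 for the falls and 0.30 for the rises. The count in wild type depended on single samples, at 305 without replicate 2 on BW25113, 279 without replicate 1 on OP50 and 277 without replicate 4 on OP50. It also depended on the model. With equal replicate numbers treated as a block, 704 genes were called in wild type and 1389 in the mutant.

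The difference between the diet effects, mutant minus wild type, was tested with an interaction term over all 16 samples and was called in 383 genes (2.42%), 326 negative and 57 positive. Among the genes called in the mutant, 264 of the falls (22.9%) had a diet effect that was more negative in the mutant, and 43 of the rises (12.6%) had one that was more positive. Another 3 rises had a smaller effect in the mutant, and for the remaining 1184 genes the difference between the genotypes was not called. Those 3 rises were hrg-3, which encodes a secreted heme-binding peptide, gsto-1, an omega-class glutathione transferase gene, and ctsa-4.1, a cathepsin A homologue. The strongest falls of the mutant belonged to the first class, with differences of -4.36 for F33H12.7, -4.23 for T26H5.9, -3.82 for Y41C4A.32 and -3.32 for warf-1.

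In 3 genes the diets acted in opposite directions, lower in the mutant and higher in wild type, with both called. nhx-6, a sodium/proton exchanger gene on chromosome II, had 392.4, 136, 244 and 324 normalized counts on BW25113 and 989, 1074, 1037 and 659 on OP50 in the mutant (log2FC -1.85). In wild type it averaged 68.5 on BW25113 and 4.08 on OP50, so that the opposite change took place at a level far under that of the mutant. C07G1.7 was also low in all groups, with 5.81 ± 1.37 on BW25113 and 44.6 ± 21.9 on OP50 in the mutant, and 18.3 ± 3.88 on BW25113 and 4.75 ± 2.08 on OP50 in wild type (mean ± SD, n = 4). The third was the lysozyme gene lys-2, which was abundant in every group and is described below with its family.

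**Figure D3:**
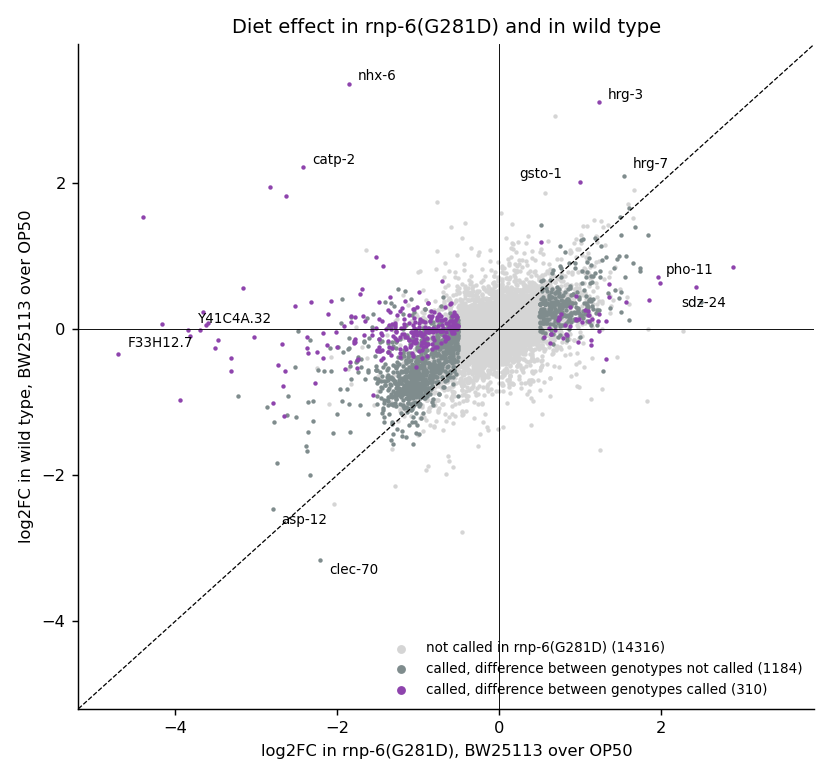
Log2FC (BW25113 over OP50) of every gene tested, in rnp-6(G281D) on the x axis and in wild type on the y axis; the dashed line marks equal effects, purple points are the 310 genes called in the mutant whose diet effect also differed between the genotypes, and dark grey points are the 1184 called genes without such a difference. Purple points crowd along the horizontal zero line on the left side, and hrg-3 and gsto-1 lie above the dashed line.

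Genes expressed in sperm fell in most of the members tested. Of 73 tested genes of this list, 51 were called lower on BW25113 (69.9%, against 7.29% over all genes tested) and 0 higher. The median log2FC of the list was -0.99 against 0.00 over all genes. The major sperm protein (msp) genes, whose products drive the crawling of nematode sperm, made up 27 of these calls out of 28 members. Summed over the list, the mutant samples held 22024, 19072, 14640 and 15908 normalized counts on BW25113 and 29247, 24685, 27576 and 39560 on OP50. The sums did not overlap, and their spread within a diet was wide. msp-113 as an example had 303, 285, 191 and 177 on BW25113 and 581, 468, 498 and 753 on OP50 (log2FC -1.28, adjusted p = 0.0013). The spermatogenesis Argonaute genes alg-3 (means of 96.9 on BW25113 and 194 on OP50) and alg-4 (98.7 on BW25113 and 227 on OP50) fell as well. Wild type showed the same direction, with 42 members called lower, a median of -0.69 and sums of 19796 to 25627 on BW25113 and 27161 to 33512 on OP50, and no member had a diet effect called different between the genotypes. The msp genes are near-identical copies, so the assignment of reads among them is uncertain. The count for the list was 33 without replicate 4 on BW25113, 33 without replicate 3 of both diets and 29 when the variance trend was left out of the limma fit. A hermaphrodite makes its sperm before adulthood and stores them, and whether the animals on the 2 diets held different numbers of sperm was not tested.

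Genes of oocytes and eggshell did not move with the sperm genes. None of the 16 tested was called (limma; 1 higher and 1 lower at an unadjusted p under 0.05), and their median log2FC was 0.00. Of the embryo markers, end-1, a GATA factor gene of the early endoderm, was higher on BW25113 (35.7, 34.8, 40.5 and 28.2) than on OP50 (12.3, 18.96, 15.1 and 15.9), with a log2FC of 1.12. pes-10, expressed in early embryos, had 351, 297, 460.2 and 379 on BW25113 and 248, 236, 218 and 293 on OP50 (log2FC 0.57). The other embryo markers tested, skn-1 and hlh-27, were not called. What part embryos inside the animals have in other changes was not tested.

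Lysozyme genes of the lys family, which encode enzymes that break bacterial cell walls, were lower on BW25113 in 7 of 8 tested members (a grouping chosen after the values were seen), and lys-8 was the exception with a log2FC of -0.09. The list of lysozymes and saposin-like proteins that holds the lys genes had 10 lower and 1 higher of 30 tested. These were 33.3% and 3.33%, against 7.29% and 2.16% over all genes tested. The lys family fell in 2 ways. lys-4, lys-5 and lys-6 lie side by side on chromosome IV (11621429 to 11627947) and fell in both genotypes. lys-4 had 5217, 5148, 4778 and 5341 normalized counts on BW25113 and 11410.1, 10874, 10995 and 12021 on OP50 in the mutant (log2FC -1.14, SE 0.04, adjusted p = 1.0e-07), and its log2FC was -1.07 in wild type. The wild type changes of lys-5 (-0.95) and lys-6 (-1.03) were also close to those in the mutant (-0.91 and -0.98). None of these 3 genes had a called difference between the genotypes.

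The second cluster, lys-1, lys-2 and lys-3 on chromosome V (10277904 to 10283544), behaved differently. lys-1 had 12079, 11125, 11526 and 12524 on BW25113 and 16346, 17480.0, 17154 and 16505 on OP50 in the mutant (log2FC -0.52), against wild type means of 12609.5 on BW25113 and 12128 on OP50. lys-2 had 2945, 2801, 3275 and 3194 on BW25113 and 6083, 7182, 6269 and 4818 on OP50 in the mutant (log2FC -0.98), and in wild type it was higher on BW25113 (3988) than on OP50 (2811). The difference between the diet effects was called for lys-1 (-0.57, adjusted p = 1.4e-05) and lys-2 (-1.48, adjusted p = 5.1e-06). For lys-3, with 29.02 ± 12.6 on BW25113 and 108 ± 27.8 on OP50 in the mutant, it was -2.04 and not called (adjusted p = 0.191). lys-7, elsewhere on chromosome V, fell in the mutant (-0.74) and in wild type (-0.90).

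Other defence genes moved mostly the same way, in animals whose intestinal marker sum was also lower on BW25113 (median log2FC of the markers -0.22). Among 108 C-type lectin genes, whose products bind sugars and are often secreted by the intestine in response to microbes, 27 were lower and 3 higher. These were 25.0% and 2.78% of the list, against 7.29% and 2.16% over all genes tested. clec-47 had 297, 244, 289.6 and 244 on BW25113 and 934, 917, 883 and 1121 on OP50 (log2FC -1.84), and fell in wild type also (-1.41). clec-125, at 14.3 ± 4.23 on BW25113 and 92.8 ± 10.3 on OP50, fell more in the mutant than in wild type (log2FC -2.66, difference -1.47, adjusted p = 0.0486), and so did clec-4 (log2FC -1.22, difference -1.11). Of the 7 infection response genes, irg-2 (log2FC -2.25), irg-1 (-1.38), ZK6.11 (-0.87) and irg-7 (-0.55) were lower. irg-2 had 15.2, 23.7, 45.3 and 25.1 on BW25113 and 104, 111, 168 and 123 on OP50 in the mutant, while wild type averaged 39.7 on BW25113 and 44.5 on OP50. Of 16 antimicrobial peptide genes 1 was called lower (6.25%, no more than over all genes) and none higher, with a median log2FC of -0.48. At an unadjusted limma p under 0.05 there were 8 lower and 0 higher, against 2837 lower and 2395 higher of all 15810 genes tested.

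Several pals genes, but not all, are induced by intracellular pathogens and proteotoxic stress as part of the intracellular pathogen response. The pals family was called lower in 8 of 19 tested members and higher in 0, with a median log2FC of -0.56. The share called lower was 42.1%, against 7.29% over all genes tested. In wild type the median was -0.09. pals-23 had 59.3, 49.3, 37.6 and 52.0 on BW25113 and 185, 152, 169 and 131 on OP50 in the mutant (log2FC -1.67), and averaged 186 on BW25113 and 198 on OP50 in wild type, so here it was the mutant on BW25113 that stood below the other groups. pals-24 did the same, with mutant means of 56.9 on BW25113 and 163 on OP50 and wild type means of 152 on BW25113 and 189 on OP50. pals-6 had the other pattern, with mutant means of 33.9 on BW25113 and 98.1 on OP50 and wild type means of 13.5 on BW25113 and 6.76 on OP50. Of the 19, these 3 had a diet effect called different between the genotypes. The count of pals genes called was 5 without replicate 2 on OP50 and 4 without replicate 4 on OP50.

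The cullin gene cul-6 and the Skp1-related genes skr-3, skr-4 and skr-5 encode parts of a ubiquitin ligase that works in the same response. All 4 were lower on BW25113. They were the only falls called among 25 tested Skp1-related and cullin genes, and 4 other members were called higher. Over all genes tested 7.29% were called lower and 2.16% higher. The list as a whole did not fall, with a median log2FC of 0.09, positive in 19 members and negative in 6. skr-3 had 946, 965, 1073 and 957 on BW25113 and 1592, 1699, 1769 and 1679.8 on OP50 (log2FC -0.77), skr-4 averaged 484 on BW25113 and 791 on OP50 (-0.71), and skr-5 averaged 27.6 on BW25113 and 62.3 on OP50 (-1.13). cul-6 had 357, 365, 467 and 322 on BW25113 and 497, 534, 652 and 510.1 on OP50 (-0.54). The fall of skr-3 and skr-4 was larger in the mutant than in wild type (differences of -0.75 and -0.69). Other Skp1-related genes, skr-8, skr-9, skr-10 and skr-12, were higher by 0.76 to 0.88, and in each of them replicate 3 held the highest BW25113 and the lowest OP50 value.

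F-box proteins are the substrate adaptors of such ligases, and C. elegans has a very large family of them. Of 240 tested, 37 were higher and 35 lower on BW25113 (15.4% and 14.6%, against 2.16% and 7.29% over all genes tested). The subfamilies, separated after the values were seen, went in opposite directions. Among 108 fbxa genes 31 were lower and none higher, with a median of -0.26, and the summed level was 25904 to 27534 on BW25113 and 28246 to 29742 on OP50. Among 92 fbxb genes 31 were higher and none lower, with a median of 0.71, and a positive log2FC in 90 of them. In wild type the median was 0.18, and 3 fbxb genes had a diet effect called different between the genotypes.

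The fbxb sums were 5385, 5201, 7610 and 5035 on BW25113 and 4095, 4178, 3092 and 3802 on OP50, so that replicate 3 was the highest on BW25113 and the lowest on OP50. This order of replicate 3 occurred in 58 of the 92 fbxb genes (63.0%), in 133 of the 341 genes called higher (39.0%), in 34 of the 1153 called lower (2.95%) and in 1296 of all 15810 genes (8.20%). Without replicate 3 of both diets the sums still did not overlap, and 8 fbxb genes and 178 genes in all were called higher. Without replicate 3 on BW25113 there were 226 rises, and without replicate 3 on OP50 there were 222. The fbxa calls changed less, at 22 to 29 when single samples were left out. Members of both subfamilies are close paralogues of low level, and reads may be shared among them. fbxc-58, from the remaining subfamily, did not have the replicate 3 order, with 65.0, 51.5, 68.9 and 45.0 on BW25113 and 276, 296, 341 and 274 on OP50 (log2FC -2.36).

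**Figure D4:**
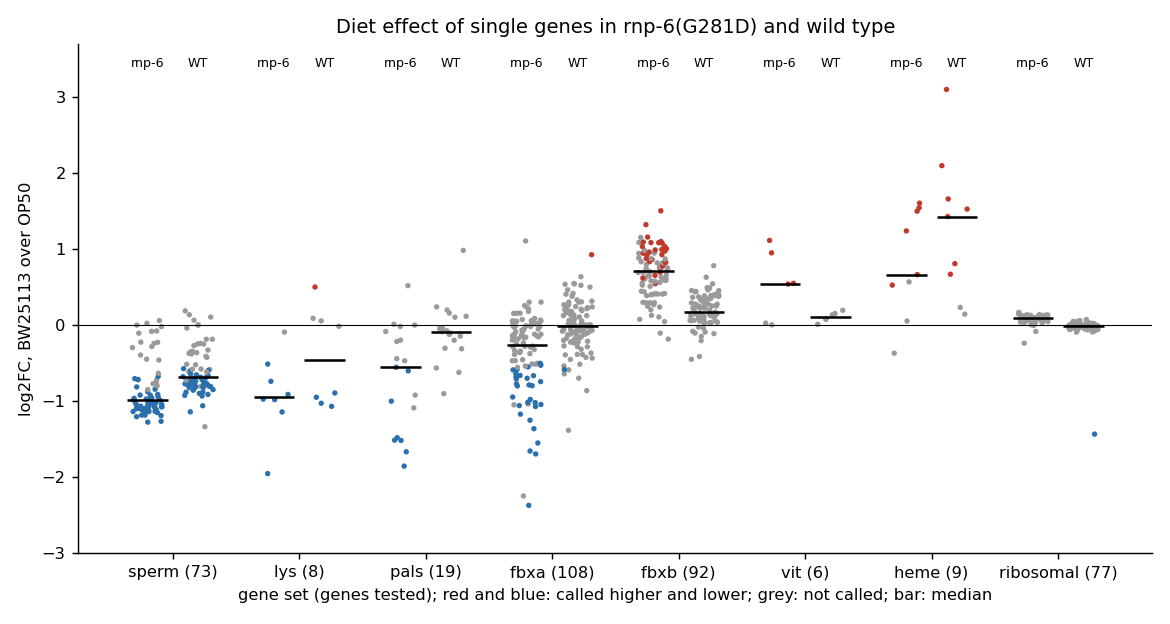
Log2FC (BW25113 over OP50) of each tested member of 8 gene groups, in rnp-6(G281D) and in wild type (WT); points are genes, red if called higher, blue if called lower and grey otherwise, and bars are medians. Sperm genes lie below zero in both genotypes, lys, pals and fbxa genes have more calls in the mutant, fbxb genes lie above zero, most heme genes lie above zero in both, and ribosomal protein genes lie just above zero in the mutant, with a median of 0.09.

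The related MATH and BTB domain genes, which also serve ubiquitin ligases, had 4 members lower and 6 higher of 71. These were 5.63% and 8.45%, against 7.29% and 2.16% over all genes tested. bath-47 had 43.3, 14.5, 17.02 and 30.4 on BW25113 and 157, 145, 176 and 146 on OP50 (log2FC -2.65), and bath-46 fell by 3.51 on the log2 scale.

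Lysosomal proteases fell in 8 of 21 tested genes and rose in 1 (38.1% and 4.76%, against 7.29% and 2.16% over all genes tested). Beside asp-12, the cathepsin B-like gene cpr-3 had 232, 183, 217 and 234 normalized counts on BW25113 and 1188, 1219, 1537 and 1621 on OP50 in the mutant (log2FC -2.67), and fell less in wild type (log2FC -0.79, difference -1.88, adjusted p = 0.00027). asp-6 was the most abundant of those that fell, at 44713, 43793, 42514 and 45023 on BW25113 and 77222, 73935, 71308 and 71718 on OP50 (log2FC -0.74). Of 10 dod genes, known from work on DAF-16 in insulin signalling, 5 were lower (50.0%, against 7.29% over all genes tested). dod-19 had 4844, 4329.5, 4589 and 4186 on BW25113 and 10035, 11227, 8894 and 10579 on OP50 (log2FC -1.18), with a difference from wild type of -1.11. dod-21, nearly absent in the other 3 groups, had 4.33, 4.12, 5.67 and 0 on BW25113 and 74.1 to 80.1 on OP50.

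Detoxification genes were called in both directions, and the intestinal markers were lower on BW25113, as given above. Cytochrome P450 genes had 13 lower and 4 higher of 57, UDP-glucuronosyltransferases 11 lower and 4 higher of 60, and glutathione transferases 5 lower and 2 higher of 38. Over all genes tested falls outnumbered rises as well (7.29% and 2.16%), and the medians of the 3 families were -0.21, -0.04 and -0.06. cyp-33C8 had 231, 179.6, 238 and 201 on BW25113 and 757, 763, 874 and 787 on OP50 (log2FC -1.91, difference from wild type -1.36). ugt-62 stood out by its level, with 4011, 3792, 3649 and 4259 on BW25113 and 9479, 9348, 9595 and 9723 on OP50 (log2FC -1.28), while wild type averaged 5296 on BW25113 and 5184 on OP50. The mutant on OP50 thus stood above the other groups, and the mutant on BW25113 stood below both wild type means. The glutathione transferase genes gst-22 (log2FC -1.79) and gst-38 (-1.83) fell, and gst-10 (1.18) and gsto-1 (1.01) rose. Among 10 antioxidant enzyme genes the catalases ctl-1 (log2FC -0.96) and ctl-2 (-0.93) were lower.

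Metal-binding genes went both ways. cdr-4, a cadmium-responsive gene, had 670.2, 632, 729 and 618 on BW25113 and 1694, 2007, 1862 and 1992 on OP50 (log2FC -1.51), and cdr-2 (-1.03) and the ferritin gene ftn-1 (-1.29) were lower too. The metallothionein gene mtl-2 rose, with 70.2, 105, 75.2 and 91.7 on BW25113 and 15.2, 23.5, 23.7 and 21.9 on OP50 (log2FC 1.97), and stayed below its wild type means of 236 on BW25113 and 144 on OP50.

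Worms cannot make heme and take it from their bacteria, and the heme-responsive genes (hrg) serve its uptake and transport. Of 9 heme genes tested, chosen after the values were seen, 6 were higher on BW25113 and 0 lower in the mutant, and 7 were higher in wild type. Over all genes tested 2.16% were called higher in the mutant and 0.721% in wild type. hrg-7, which encodes a secreted protease-like signal, had 22364, 21164, 16149 and 21887 on BW25113 and 6519, 6715, 6354 and 8312 on OP50 (log2FC 1.54, SE 0.11, adjusted p = 4.9e-06). The intestinal heme importer gene hrg-4 had 675, 673, 457 and 602 on BW25113 and 193, 173, 185 and 234.8 on OP50 (log2FC 1.604), and the lysosomal heme transporter gene hrg-1 had 1412, 1531, 1372 and 1558 on BW25113 and 403, 415, 651 and 664 on OP50 (log2FC 1.498). The diet separated all 8 mutant samples in these 3 genes, as it did in 23.2% of all genes tested. Their changes in wild type were 2.098 for hrg-7, 1.66 for hrg-4 and 1.53 for hrg-1, and the difference between genotypes was called for none of them. The diet effect was smaller in the mutant for hrg-3 and for the heme-responsive gene hrg-9. For hrg-3 the mutant averaged 176 on BW25113 and 75.7 on OP50, and wild type 283 on BW25113 and 31.1 on OP50 (difference -1.86, adjusted p = 0.0021). hrg-9 was not called in the mutant (log2FC -0.37), rose in wild type (0.67) and had a difference of -1.04. The heme exporter gene mrp-5 rose as well, with 8993, 8645, 7583 and 9357 on BW25113 and 5641, 5223, 5146 and 5789 on OP50 (log2FC 0.66).

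Vitellogenins are the yolk proteins that the adult intestine makes for its oocytes. Of the 6 genes, vit-1, vit-3, vit-4 and vit-5 were higher on BW25113 in the mutant, and vit-2 (log2FC 0.00) and vit-6 (0.02) were not called. The share called higher was 66.7%, against 2.16% over all genes tested. vit-1 had 27655, 25498, 29736 and 29138 on BW25113 and 14050.1, 12257, 13737 and 11783 on OP50 in the mutant (log2FC 1.11), and averaged 36383 on BW25113 and 31751 on OP50 in wild type. vit-3 had 124393, 129971, 127879 and 130681 on BW25113 and 73576, 69582, 68792 and 55187 on OP50 (log2FC 0.95). Both had a larger diet effect in the mutant than in wild type (differences of 0.92 and 0.82). vit-4 (0.54) and vit-5 (0.55) lay just past the threshold and were no longer called without replicate 4 on OP50. With quantile normalization the count of vitellogenins called higher was also 2. The vitellogenin genes are similar in sequence and may share reads.

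Fatty acid genes changed in a minority of members. Of 7 desaturases, which set the degree of unsaturation of membrane and storage lipids, fat-7 (log2FC -1.08) and fat-5 (-0.93) were lower. fat-5 had 2346, 2322, 2674 and 2513 on BW25113 and 4536, 4286, 4201 and 5889.8 on OP50, against wild type means of 1110.0 on BW25113 and 1228 on OP50. The acyl-CoA synthetase gene acs-2, which activates fatty acids for oxidation in mitochondria, averaged 581 ± 101 on BW25113 and 1344 ± 216 on OP50 (log2FC -1.21). In its family 5 of 22 genes were lower (22.7%, against 7.29% over all genes tested). Peroxisomal oxidation genes were divided, with acox-1.5 (-1.55) and dhs-28 (-0.61) lower and acox-1.2 (1.23) and acox-1.3 (0.65) higher. Of the lysosomal lipases, lipl-4 fell (-1.76) and lipl-2 rose (1.33). The choline kinase gene ckb-2 was the only one called of 18 genes for phosphatidylcholine and phosphatidylethanolamine synthesis (log2FC -1.11). The median of these 18 was -0.14, with 10 lower and 1 higher at an unadjusted p under 0.05.

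Vitamin B12 reaches worms through their bacteria, and its supply is read out by the propionate shunt, whose genes rise when B12 is short. None of the 5 shunt genes was called in the mutant (limma; 3 higher and 0 lower at an unadjusted p under 0.05). acdh-1, the acyl-CoA dehydrogenase gene used as the reporter of this state, had 58779.7, 61223, 57264 and 56578 on BW25113 and 57051, 55404, 55595 and 53323 on OP50 (log2FC 0.08, adjusted p = 0.122). Nor was any of the 7 genes of the B12-dependent propionate pathway called (2 higher and 0 lower at an unadjusted p under 0.05). Of 19 genes of the methionine and folate cycles, cbl-1 (log2FC 0.67) was higher and sams-5 (-0.67) lower. The study cites earlier work in which OP50 held less B12 than K12 strains. It also reports that B12 added to OP50 restored the mutant's body size. In its tests the benefit of BW25113 and B12 required the methionine synthase gene metr-1 but not mmcm-1 of the propionate pathway. How much B12 the animals held on each diet was not tested here.

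**Figure D5:**
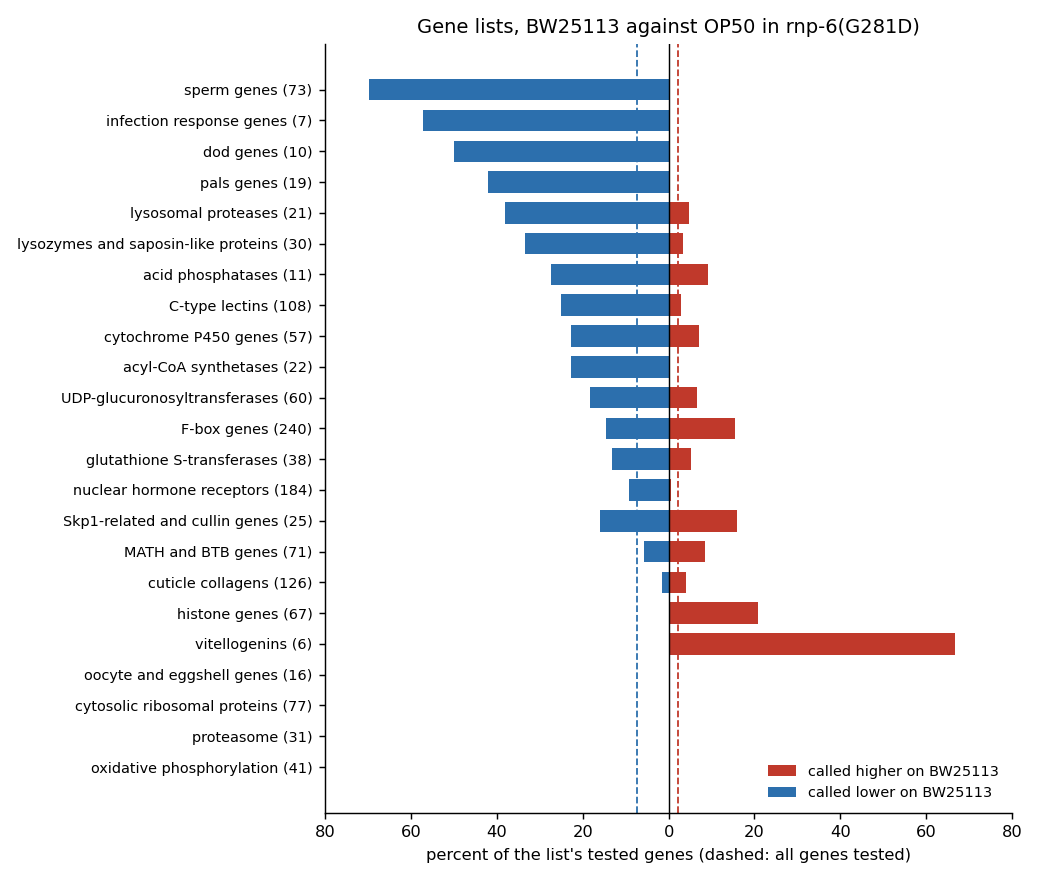
Percent of the tested members of each gene list called lower and called higher on BW25113 in rnp-6(G281D), with the number of members tested; dashed lines mark the percentages over all genes tested (7.29% lower and 2.16% higher). Of the lists drawn, sperm genes have the highest share of falls, 69.9%, and several lists of core machinery have no call.

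The core machinery of the cell was not called in any direction. Cytosolic ribosomal protein genes (77 tested, median 0.09), mitochondrial ribosomal protein genes (67, 0.08), proteasome subunits (31, 0.05), oxidative phosphorylation genes (41, 0.02), aminoacyl-tRNA synthetases (32, 0.07) and spliceosome components (44, 0.06) all had 0 calls (limma). At an unadjusted limma p under 0.05 the same lists had 42, 28, 10, 6, 15 and 18 members higher and 0, 1, 0, 0, 0 and 3 lower. Over all 15810 genes tested, 2395 were higher and 2837 lower at that p. Small shifts above OP50 were thus frequent in these lists and none was called, except that oxidative phosphorylation genes were near the share of all genes. Of 13 cytosolic heat shock genes 0 were called (5 higher and 1 lower at an unadjusted p under 0.05), with a median of 0.17. In the endoplasmic reticulum stress list 1 of 15 was called, xbp-1 (log2FC -0.52), and hsp-4 was not (-0.31). The median of this list was -0.13, with 9 lower and 3 higher at an unadjusted limma p under 0.05. Histone genes had 14 of 67 higher (20.9%, against 2.16% over all genes tested) and 0 lower. All 14 had the replicate 3 order described for the fbxb genes, and the count was 6 without replicate 3 of either diet and 0 without replicate 3 of both. his-32 as an example had 2646, 2275, 4017 and 2403 on BW25113 and 1786, 2124, 1016 and 1473 on OP50, and histone copies share reads.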

How the data were processed

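Per the labels and the study's methods, libraries were ribosomal RNA-depleted and stranded, and the authors quantified reads against C. elegans WBcel235 with Kallisto 0.46.1. The main values are the authors' normalized counts, a signal scaled by DESeq2 1.24 size factors, per gene and sample. The deposited FPKM table, for which the tool is not given in the sources used here, served as an alternative. Whole reads could not be recovered (47.8% to 79.0% of low values lay on whole steps, within 0.02), so no count model was run.

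Genes averaging 10 or more over the 8 mutant samples entered limma 3.58.1 (R 4.3.3; eBayes with trend) on log2(normalized count + 1), which understates changes of low genes, 4 against 4 samples with no covariate, two-sided, and Benjamini-Hochberg adjustment over all genes tested. The wild type fit used the same genes, and the interaction used all 16 samples. The procedure was tested on simulated data. Single genes also had the two-sided exact permutation test.

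Named genes were the 10 largest rises and falls with a mean of at least 100 and no overlap, members of small lists and the leading members of longer ones, genes the study follows, and the 5 strongest interactions in each direction. Not every gene under these rules is described. Some exceptions are marked in the text. Other members of longer lists, such as asp-6, clec-4, skr-4 and cul-6, were outside these rules and were picked with their values known. The comparison and the gene lists were chosen with earlier results of these data known. Coordinates and biotypes came from the Ensembl 115 annotation of WBcel235, 11 date-like names were replaced by gene identifiers or names from it, and antisense or near-identical genes are uncertain. Whether equal replicate numbers mark a shared batch is not given in the sources used here. In the mutant, same-numbered samples did not deviate together in every pair (r -0.07 to 0.28, positive in 2 of 4 pairs) and were not treated as paired, and in wild type r was 0.24 to 0.57 in every pair.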

Additional observations from a re-analysis of the deposited data

Results flagged for a closer look

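Single samples were checked in the 24 genes followed through the alternative settings and in the other genes the study follows, not in all 245 named genes. Among these 72 groups of 4 mutant samples, 5 held a sample far from the other 3, where about 3.6 would be so by chance at 1 in 20. In rnp-6(G281D) on OP50, replicate 4 was high for warf-1 (1485 normalized counts) and Y41C4A.32 (5005) and low for nhx-6 (659) and C02E7.10 (132). On BW25113, replicate 3 was low for hrg-7 (16149). None of these genes lost its call when that sample was left out.

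The diet effect differed between rnp-6(G281D) and wild type (limma interaction, mutant minus wild type on the log2 scale, 16 samples) in 19 of 24 genes followed, against 2.42% of all genes tested. The genes followed include the strongest interactions and the largest changes in the mutant, so this count follows from how they were chosen. It was more negative in the mutant for nhx-6 (-5.21, adjusted p = 0.0030), C02E7.10 (-4.77, 0.0047), catp-2 (-4.63, 0.0104), F33H12.7 (-4.36, 0.0097), T26H5.9 (-4.23, 2.6e-05), Y41C4A.32 (-3.82, 5.0e-05), T19C9.8 (-3.73, 5.6e-05), Y37H2A.14 (-3.67, 4.1e-06), warf-1 (-3.32, 2.6e-05), tsp-1 (-2.92, 0.0352) and tsp-2 (-2.91, 0.0293). The difference was positive for sdz-24 (1.86, adjusted p = 0.0050), ugt-53 (1.47, 3.6e-05), pho-11 (1.37, 5.1e-06), fpn-1.2 (1.37, 0.00018), T22B7.7 (1.27, 0.0045), T05E7.1 (1.22, 0.0061), cutl-18 (0.93, 0.0013) and ttr-44 (0.74, 0.0044). For nhx-6, catp-2, C02E7.10, tsp-1, tsp-2 and F33H12.7 the wild type values were low and varied several-fold between samples of a diet.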

How the results depend on the processing

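In rnp-6(G281D), 1494 genes were called. The count was 794 with a mean of at least 100 (200 higher, 594 lower), 2873 with no fold change threshold and 688 beyond a log2FC of 1. Leaving out single samples gave 1080 to 1506 genes, 222 to 375 of them higher and 827 to 1194 lower. Quantile normalization gave 549 higher and 874 lower genes, and leaving out replicate 3 of both diets, chosen after seeing the data, gave 178 higher and 858 lower. No scaling moved the median of all genes by more than 0.03. With a replicate block 1389 genes were called in the mutant, 1301 of them shared with the 1494, 704 in wild type and 476 in the interaction; in the mutant 2 of 8 samples correlated best with their own number. The interaction count was 320 to 405 without single samples. In wild type the count was 187 with no filter, 266 with a mean of at least 100, and 277 to 542 without single samples. Of the single genes followed, C08F1.10 lost its call in 7 alternatives and nhx-6 in one fit of all 16 samples, and no direction reversed. Counts over lists, tried after seeing the data, moved by over 1.5 times in several cases. Quantile normalization gave 48 fbxb genes and 57 F-box genes higher (31 and 37 in the report), and 19 fbxa genes, 21 F-box genes and 9 nuclear hormone receptors lower (31, 35 and 17 without it). Without the variance trend 18 fbxb, 21 F-box and 3 histone genes were higher, with the replicate block 18 fbxb and 22 F-box genes, and in one fit of all 16 samples 48 fbxb and 59 F-box genes. With FPKM 10 sperm genes were lower, where 27 of the 73 were tested, and 0 of 8 histone and 0 of 13 Skp1-related and cullin genes were higher. With a mean of at least 100, which leaves fewer genes to test, the lists had 14 C-type lectins, 2 pals genes, 14 fbxa genes, 17 F-box genes, 3 dod genes, 7 cytochrome P450 genes, 7 UDP-glucuronosyltransferases, 4 nuclear hormone receptors, 2 infection response genes and 2 acyl-CoA synthetases lower, and 6 fbxb and 8 F-box genes higher. Leaving out replicate 4 of BW25113 gave 20 fbxb and 24 F-box genes higher, leaving out replicate 4 of OP50 gave 24 F-box genes, and leaving out replicate 2 of BW25113 gave 2 cytochrome P450 genes higher (4 in the report). Low counts limit the precision for genes under 100 normalized counts.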
